A study of Homo sapiens with 12 samples.

Results

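ZFP36, ZFP36L1 and ZFP36L2, the small family of mRNA decay proteins around tristetraprolin, were followed in A375 melanoma cells treated with DdBIC, hemin or both. The members were the rows of the deposited count table that carry these gene names, 3 of 20263 genes, and all 3 were among the 14287 genes with enough counts to be tested. They were selected on their counts in these 4 groups, which were known to be higher with DdBIC. Their levels and differences are therefore given as descriptions with a spread or a standard error and no test.

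RNA-seq was performed on 4 groups of 3 samples, all from A375, an established human melanoma line that the labels describe as wild type. Ctrl cells received neither agent, DdBIC cells received the compound that the labels write as DBIC (dodecyl 1H-benzo[d]imidazole-5-carboxylate, a ligand of the nuclear receptor Nur77), Hemin cells received hemin, the oxidised chloride form of heme, and DdBIC+Hemin cells received both. The series asked how DdBIC induces pyroptosis, a lytic form of cell death, given that hemin inhibits it. Doses and exposure times of these libraries are not given in the sources used here, and nothing in the labels says that samples of one group came from separate cultures, so the spread between them may be technical.

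Tristetraprolin, the product of ZFP36, binds AU-rich elements in the 3′ untranslated region of short-lived mRNAs through tandem CCCH zinc fingers and brings in the CCR4-NOT deadenylase, after which the mRNA is decapped and degraded. Cytokine, chemokine and growth factor mRNAs are its best known targets. ZFP36 is itself an early response gene whose mRNA carries AU-rich elements, and the protein is held in check by the p38 kinase cascade and 14-3-3 proteins. ZFP36L1 and ZFP36L2 share the zinc fingers and are known for roles in development, in lymphocytes and in the cell cycle.

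The core element that these proteins bind, the heptamer TATTTAT in DNA letters, was found in the 3′ untranslated region of each family member. The sites are shown because the same letters occur in 30 of the 33 AU-rich mRNAs described later, all but CCL2, MYC and CDKN1A, and 23 of the 33 hold the longer nonamer TTATTTATT. They are from GENCODE 29 transcripts on GRCh38, 5′ to 3′ on the strand of the gene, with the heptamers in capitals.
ZFP36, chr19:39409188-39409217, plus strand: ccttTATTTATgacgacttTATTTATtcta
ZFP36, chr19:39409227-39409243, plus strand: tatagTATTTATatata
ZFP36L1, chr14:68788342-68788358, minus strand: aaacgTATTTATtgcca
ZFP36L1, chr14:68788300-68788316, minus strand: gttcaTATTTATcggga
ZFP36L1, chr14:68788083-68788099, minus strand: tggatTATTTATtttag
ZFP36L2, chr2:43223454-43223470, minus strand: taactTATTTATtatct
ZFP36L2, chr2:43223406-43223422, minus strand: tactgTATTTATcaagt
ZFP36L2, chr2:43223218-43223234, minus strand: tgtaaTATTTATttcat

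Each of the 3 genes held 3 heptamers and 1 copy of the nonamer, which contains the heptamer. The ZFP36 region was the shortest at 713 bases, against 1871 bases for ZFP36L1 and 1917 bases for ZFP36L2. In stretches of the ZFP36 length, 17.8% of the tested genes with a region at least that long held a heptamer and 3.75% held a nonamer. The shares were 39.9% and 9.14% at the length of ZFP36L1, and 40.5% and 9.33% at that of ZFP36L2. A match of letters is a description of the sequence and does not show binding.

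ZFP36 (ENSG00000128016) lies on the plus strand of chromosome 19 at chr19:39406813-39409412, ZFP36L1 (ENSG00000185650) on the minus strand at chr14:68787660-68796253 and ZFP36L2 (ENSG00000152518) on the minus strand at chr2:43222402-43226609, all on GRCh38 and at the same positions in the table and in GENCODE 29. No other GENCODE 29 gene overlaps any of the 3. The nearest tested neighbour of ZFP36, PLEKHG2, ranged from 38.1 to 67.4 CPM (read counts scaled to a common library size) over the 12 libraries, and THADA beside ZFP36L2 ranged from 54.2 to 67.1 CPM.

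The 250 bases before the start of ZFP36 and before one of the starts of ZFP36L1 are shown because the counts of both genes were higher with DdBIC. ZFP36L2, also higher with DdBIC, was not among the promoters used here. Both stretches are from RefSeq on GRCh38.p14, 5′ to 3′ toward the start that RefSeq gives. The RefSeq starts used here lie inside the gene spans given above, since GENCODE 29 begins both genes further upstream, so part of the ZFP36 stretch, its TATAA included, falls within that span. Capitals mark the letters TGACGTCA (the cyclic AMP response element), TGANTCA (the AP-1 element), GGGCGG (the SP1 element) and TATAA, searched on both strands in the same 250 bases of these genes and of all promoters.
ZFP36, chr19:39406597-39406846, plus strand: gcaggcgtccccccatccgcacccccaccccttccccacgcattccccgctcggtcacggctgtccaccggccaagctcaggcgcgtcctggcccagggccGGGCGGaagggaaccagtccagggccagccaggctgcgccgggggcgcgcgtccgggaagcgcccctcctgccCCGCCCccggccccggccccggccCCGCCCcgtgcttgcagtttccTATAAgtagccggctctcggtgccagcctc
ZFP36L1, chr14:68793417-68793666, minus strand: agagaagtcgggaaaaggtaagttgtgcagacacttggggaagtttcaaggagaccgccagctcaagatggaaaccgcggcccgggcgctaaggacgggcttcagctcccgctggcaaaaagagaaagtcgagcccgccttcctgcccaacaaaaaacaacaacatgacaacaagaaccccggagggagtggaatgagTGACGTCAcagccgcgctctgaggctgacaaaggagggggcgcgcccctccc

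The ZFP36 stretch held 3 copies of GGGCGG, letters found in 42.6% of 35116 promoters of the same table, and TATAA 30 bases before the start, found in 18.9%. The ZFP36L1 stretch held TGACGTCA 52 bases before the start, found in 1.65% of the promoters. The other start of ZFP36L1 held none of these 4 motifs. Neither gene had a match to TGANTCA, to GCGTGGGCG (the EGR element), to the CArG box or to the NF-kB motif in these windows.

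Total counts ran from 37951275 to 44358912 per library, so that 3 counts, the limit that a count of 0 allows, corresponded to at most 0.079 CPM, for counting error only. The A375 label was checked against melanocyte lineage markers. SOX10 was at 548 to 769.5 CPM, MITF at 8.31 to 21.5 CPM, PAX3 at 12.3 to 18.5 CPM and S100B at 6.59 to 12.7 CPM. Of the pigment genes, PMEL was at 0.409 to 1.11 CPM, and TYR, MLANA, DCT and TYRP1 were below 0.5 CPM in every library. Among leukocyte markers, PTPRC had 0 counts in every library and LYZ was at 1.35 to 2.19 CPM. The 3 fibroblast markers summed to 15.15 to 18.87 CPM per library, and 2 of them averaged at least 1 CPM. Sums of 3 markers each were 2.62 to 3.92 CPM for keratinocytes and 1.09 to 2.03 CPM for endothelial cells. HMOX1, which encodes heme oxygenase and responds to heme, was at 61.9 to 65.5 CPM with Hemin and 145.7 to 188 CPM with DdBIC+Hemin, against 7.99 to 9.19 CPM in Ctrl and 7.26 to 8.73 CPM with DdBIC. The mitochondrial genome supplied 2.43 to 2.99% of counts with DdBIC and 2.90 to 3.43% in the other groups, and its part in the results was not tested.

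ZFP36 was the member with by far the widest range. Its level in the Ctrl libraries was 12.2, 11.1 and 11.6 CPM. With DdBIC it was 169, 361 and 149 CPM. With Hemin it was 10.02, 9.20 and 10.3 CPM, and with DdBIC+Hemin it was 7.58, 9.99 and 9.30 CPM.

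All DdBIC libraries stood far above all others, and the lowest of them, DdBIC 3, had no overlap with any other group. The mean was 227 ± 117 CPM for DdBIC, against 11.6 ± 0.590 CPM for Ctrl, 9.82 ± 0.551 CPM for Hemin and 8.96 ± 1.24 CPM for DdBIC+Hemin (SD, n = 3 each). In order of the means, DdBIC+Hemin and Hemin overlapped, Hemin and Ctrl did not overlap but differed by a ratio of only 1.18, and DdBIC was separate from Ctrl with a ratio of 19.5. The counts come from whole cultures, in which more RNA in every cell and more RNA in some cells cannot be told apart.

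The spread within the DdBIC group came from replicate 2, which was 2.13 times the next library. Without it the mean was 159 CPM and the ratio to Ctrl was 13.7. Among the 267 genes that were called higher with DdBIC at a log2 fold change of at least 1, ZFP36 was the 1 gene whose level in DdBIC 2 was at least 2 times that of both other DdBIC libraries. DdBIC 1 was the highest library for 185 of these genes, DdBIC 3 for 61 and DdBIC 2 for 21. The coefficient of variation of ZFP36 in the group was 51.7%, against a median of 8.26% over these genes, and 3 of them had a larger one. PLEKHG2, the neighbour of ZFP36, was at 57.8, 57.1 and 54.5 CPM in the same libraries.

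ZFP36L1 encodes a protein also called BRF1 or TIS11B. Its level was 86.0, 81.8 and 85.3 CPM in Ctrl and 185, 197 and 186 CPM with DdBIC. With Hemin it was 82.6, 99.2 and 89.6 CPM, and with DdBIC+Hemin it was 111.6, 93.9 and 112.5 CPM. The DdBIC libraries again stood above all others, with a mean of 189 ± 6.41 CPM against 84.4 ± 2.24 in Ctrl, a ratio of 2.25 (SD, n = 3 each). The means with Hemin, 90.5 ± 8.34 CPM, and with DdBIC+Hemin, 106.0 ± 10.5 CPM, lay between these. Ctrl overlapped with Hemin, and Hemin overlapped with DdBIC+Hemin.

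ZFP36L2 encodes a protein also called BRF2 or TIS11D. It was at 336.7, 333 and 336.7 CPM in the Ctrl libraries and at 484, 483 and 471 CPM in the DdBIC libraries. The Hemin libraries had 304, 292 and 291 CPM, and the DdBIC+Hemin libraries had 382.5, 352 and 386 CPM. No pair of groups that were neighbours in the order Hemin, Ctrl, DdBIC+Hemin and DdBIC overlapped. Their means were 295.6 ± 7.12, 335.5 ± 2.19, 373.5 ± 18.5 and 479 ± 7.40 CPM (SD, n = 3 each), so the ratio of DdBIC to Ctrl, 1.43, was the smallest of the family while its libraries were the most alike.

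**Figure D1:**
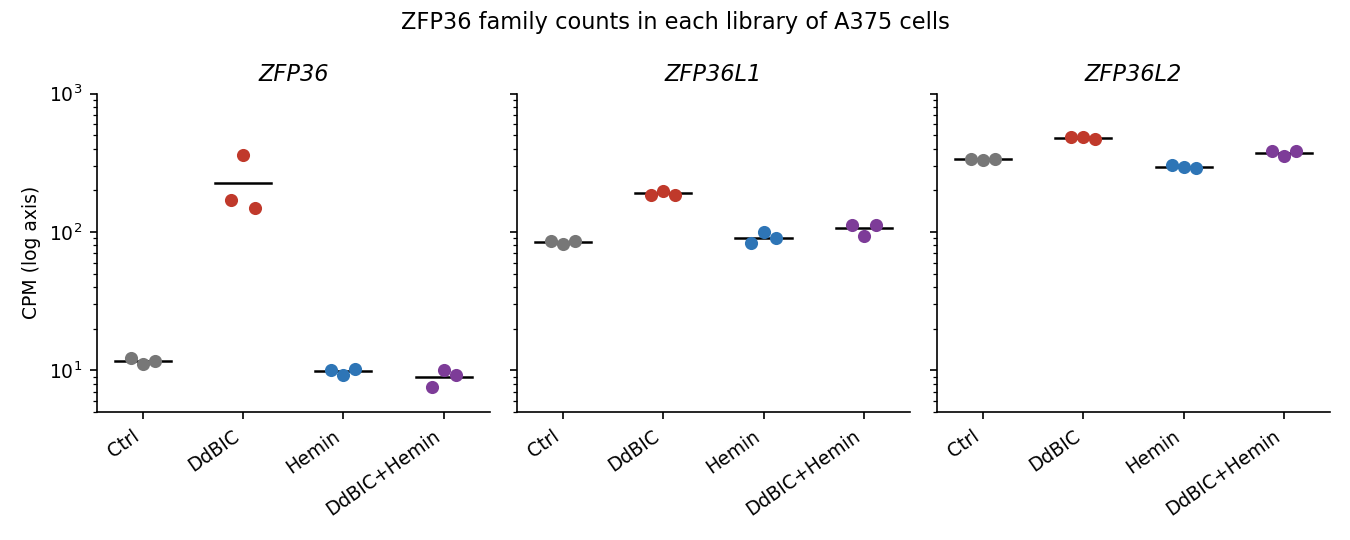
CPM of ZFP36, ZFP36L1 and ZFP36L2 (log axis) in each of the 3 libraries of Ctrl, DdBIC, Hemin and DdBIC+Hemin, with points for libraries and a line for the group mean. ZFP36 lies at 7.58 to 12.2 CPM outside the DdBIC group and at 149 to 361 CPM within it, where replicate 2 is the highest.

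The fit over all genes gave the same differences with a standard error. The fitted log2 fold change of DdBIC against Ctrl was 4.28 (SE 0.333) for ZFP36, 1.17 (SE 0.0763) for ZFP36L1 and 0.52 (SE 0.0341) for ZFP36L2. Over all tested genes 37.2% were called in this comparison, 20.0% higher and 17.2% lower. By size of the fold change 29 of the 14287 genes stood above ZFP36, 419 above ZFP36L1 and 1641 above ZFP36L2.

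With hemin added to DdBIC, the log2 difference from DdBIC alone was −4.66 (SE 0.340) for ZFP36, −0.84 (SE 0.0757) for ZFP36L1 and −0.36 (SE 0.0340) for ZFP36L2. In this comparison 31.9% of the tested genes were called, 18.4% lower and 13.5% higher. The log2 value was lower than that of ZFP36 in 10 genes, than that of ZFP36L1 in 579 and than that of ZFP36L2 in 2198. Without DdBIC replicate 2 the values for ZFP36 were 3.77 against Ctrl and −4.15 for added hemin. Its standard error against Ctrl was then 0.107 in place of 0.333.

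Hemin without DdBIC gave log2 differences of −0.24 (SE 0.312) for ZFP36, 0.10 (SE 0.0757) for ZFP36L1 and −0.18 (SE 0.0340) for ZFP36L2, in a comparison where 4.06% of the tested genes were called, 1.47% higher and 2.59% lower. The effect of DdBIC in the presence of hemin, DdBIC+Hemin against Hemin, was −0.13 (SE 0.315) for ZFP36, 0.23 (SE 0.0756) for ZFP36L1 and 0.34 (SE 0.0340) for ZFP36L2. The value of ZFP36 was smaller than its standard error, which comes from the fit over all 12 libraries, DdBIC replicate 2 included. Expressed in CPM, DdBIC added 215 for ZFP36, 105.0 for ZFP36L1 and 144 for ZFP36L2 without hemin. With hemin the same difference was −0.862 for ZFP36, 15.6 for ZFP36L1 and 77.8 for ZFP36L2.

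The difference between both DdBIC effects (DdBIC+Hemin against Hemin, less DdBIC against Ctrl), called the interaction here, was −4.42 (SE 0.447) on the log2 scale for ZFP36, −0.94 (SE 0.107) for ZFP36L1 and −0.18 (SE 0.0481) for ZFP36L2. In it 16.6% of all tested genes were called, 10.2% lower and 6.40% higher. The comparisons share samples: DdBIC enters the first, the second and the interaction, and Ctrl the first, the third and the interaction.

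**Figure D2:**
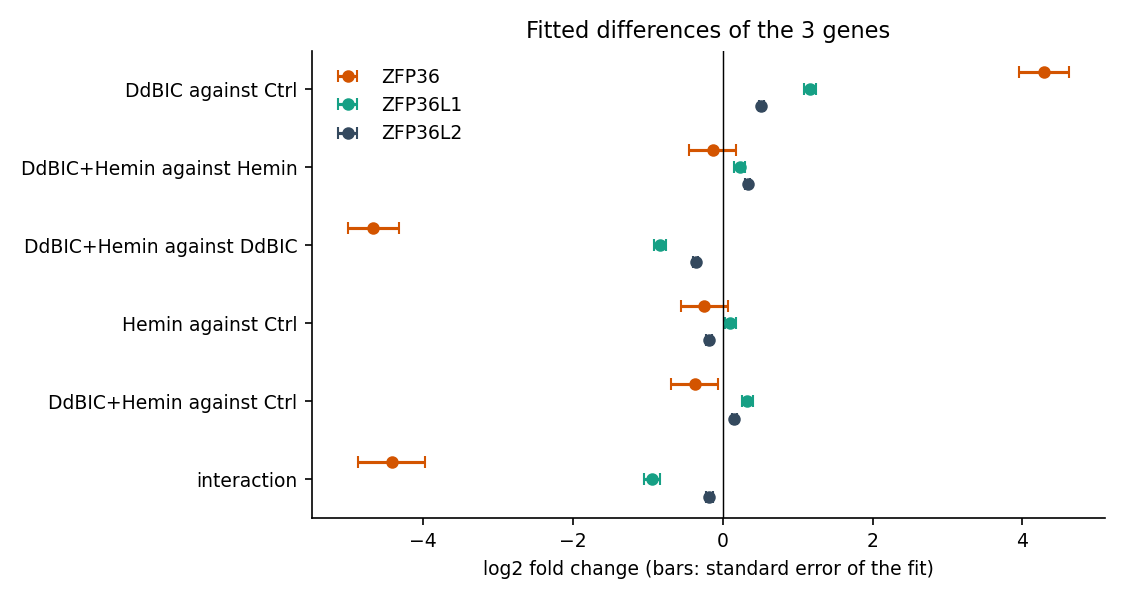
Fitted log2 fold change of ZFP36, ZFP36L1 and ZFP36L2 in each comparison, with the standard error of the fit as the bar and the interaction in the lowest row. ZFP36 is at 4.28 for DdBIC against Ctrl and at −0.13 for DdBIC+Hemin against Hemin, while ZFP36L2 is at 0.52 and 0.34.

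Levels of the 3 genes can be compared with each other only per length, for which the deposited TPM values (counts scaled by length and depth) were used. In Ctrl, ZFP36L2 was the leading member at 188.5 ± 1.95 TPM, followed by ZFP36L1 at 69.8 ± 13.7 TPM and ZFP36 at 13.6 TPM (SD, n = 3). With DdBIC, ZFP36 was at 203, 450 and 183 TPM and ZFP36L2 at 271, 270 and 267 TPM, so ZFP36 was above ZFP36L2 in DdBIC 2 and below it in the other libraries of the group. The summed level of the family was 715 ± 161 TPM for DdBIC, against 272 ± 16.3 TPM for Ctrl, 244 ± 16.1 TPM for Hemin and 304 ± 40.1 TPM for DdBIC+Hemin.

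ZFP36 made up 5.004% of this sum in Ctrl and 34.0, 50.1 and 28.2% in the DdBIC libraries. Its share was 4.86% with Hemin and 3.71% with DdBIC+Hemin. ZFP36L2 went the other way, with 69.5% in Ctrl against 45.3, 30.03 and 41.2% in the DdBIC libraries, although its own level was higher there. ZFP36L1 had a share of 25.5% in Ctrl and 23.7% with DdBIC.

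The TPM values of ZFP36L1 depend on a length that was not the same in every library. The length implied by the ratio of count to FPKM ran from 2077 to 3733 bases for ZFP36L1, a factor of 1.80, larger than in 97.4% of 10121 well counted genes, against factors of 1.11 for ZFP36 and 1.01 for ZFP36L2. With counts divided by one fixed exon length per gene, ZFP36L1 made up 14.5% of the sum in Ctrl and 13.5% with DdBIC, while ZFP36 made up 5.12% and 38.8% and ZFP36L2 80.4% and 47.8%. The order of the members in Ctrl was the same on both scales.

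**Figure D3:**
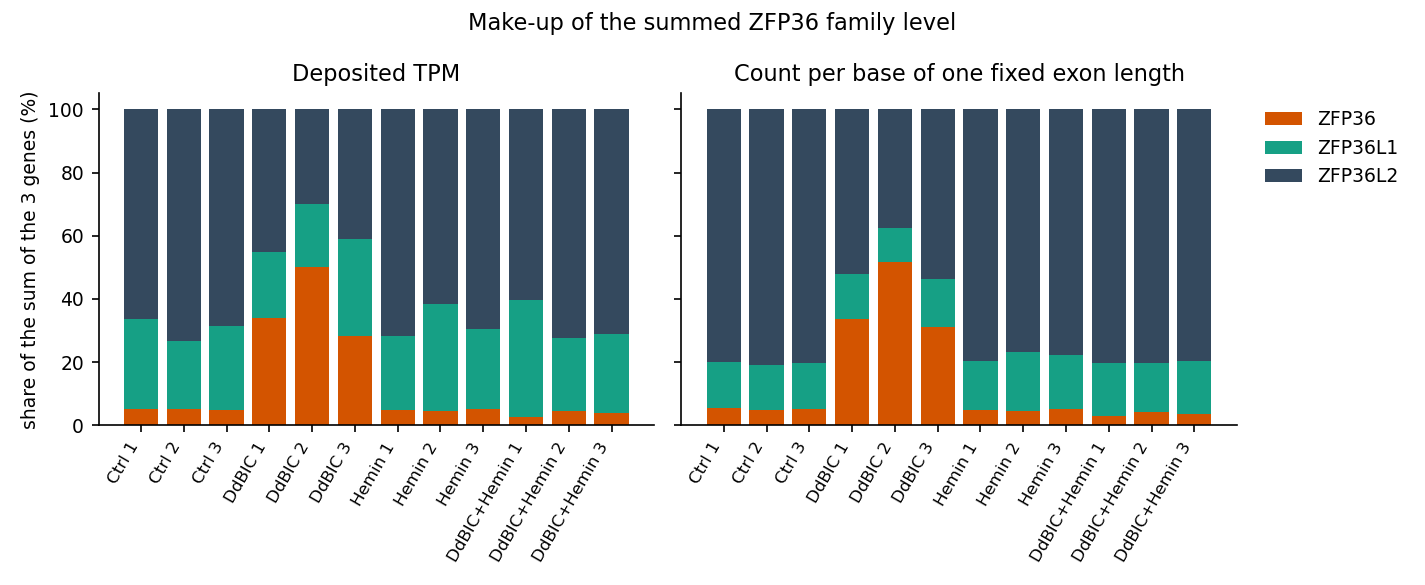
Share (%) of ZFP36, ZFP36L1 and ZFP36L2 in the sum of the 3 genes in each library, from deposited TPM (left) and from counts per base of one fixed exon length (right). ZFP36 holds 28.2 to 50.1% of the TPM sum in the DdBIC libraries and about 5% in Ctrl.

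The genes through which the family acts and is controlled were read from lists of pathway members. Each gene was tested with edgeR's quasi-likelihood test, with p-values adjusted over all tested genes. The lists were written with earlier results of these data known, so their counts are given beside the share of all genes called.

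The deadenylases, decapping factors and exosome subunits that degrade an mRNA once it is bound by a ZFP36 protein form the first list. Of 53 genes, 13 rose with DdBIC, 5 fell and 35 were not called, where 20.0% of all genes rose and 17.2% fell. Under upper-quartile scaling the split was 11 and 11, where 2310 of all 14287 tested genes rose and 3472 fell. The median log2 fold change was 0.06, against −0.01 over all tested genes. CNOT1, the scaffold of the deadenylase complex, was at 301 to 328.5 CPM over the 12 libraries and was not called in any comparison.

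The largest rises were in BTG1 and BTG2, antiproliferative proteins that bind the deadenylase and speed up poly(A) shortening. BTG1 was at 108.4, 105.0 and 106.2 CPM in Ctrl and at 268, 239 and 251 CPM with DdBIC, a log2 fold change of 1.25 (SE 0.0375, adjusted p = 1.41e-09). BTG2 rose from 9.17 to 18.5 CPM (log2 fold change 1.01, SE 0.0877, adjusted p = 5.61e-06). TOB1, a relative of BTG1 that bridges the deadenylase and the poly(A) binding protein, rose by 0.65 (SE 0.0788), and CNOT4, a ubiquitin ligase associated with the complex, rose by 0.59 (SE 0.0980). The largest falls were smaller, with −0.34 (SE 0.0938) for WDR61 and −0.20 (SE 0.0416) for TTC37, both parts of the SKI complex that feeds the exosome, and −0.21 (SE 0.0417) and −0.17 (SE 0.0454) for the LSM ring genes LSM2 and LSM4. The call of WDR61 was lost without Ctrl 3, without DdBIC 1 and without DdBIC 2 (adjusted p up to 0.0656).

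With hemin added to DdBIC, 7 of the 53 genes rose and 17 fell, beside 13.5% and 18.4% of all genes. Under upper-quartile scaling the split was 11 and 14, and that of all genes turned from 1933 higher and 2626 lower to 2948 and 2032. BTG1 fell by 0.70 (SE 0.0370) to 155 CPM, BTG2 fell by 0.73 (SE 0.0869) to 11.1 CPM and TOB2 fell by 0.74 (SE 0.05) from 127 to 76.1 CPM. DCP2, the decapping enzyme, had a value of −1.05 (SE 0.353, adjusted p = 0.049), but it differed as much between replicates, with 38.7, 33.9 and 14.3 CPM in Ctrl, and its call was lost under 12 of 19 alternatives. LSM2 and WDR61 rose by 0.26 (SE 0.0417) and 0.40 (SE 0.0937). EIF4E2, a cap binding repressor, and DCP1B were called higher at 0.27 (SE 0.0809) and 0.20 (SE 0.0656), with adjusted p up to 0.094 and 0.118 under the alternatives. With Hemin alone 0 of the 53 genes rose and 4 fell, beside 1.47% and 2.59% of all genes. TOB1 was at −0.54 there (SE 0.0797, adjusted p = 0.0032). TOB2 was at −0.21 (SE 0.05, adjusted p = 0.0383), called under 12 of 19 alternatives. The count of 4 went to 2 without Ctrl 3 or Hemin 2.

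Other proteins that bind AU-rich elements or destroy inflammatory mRNAs form a second list of 20 genes. With DdBIC 8 rose, 1 fell and 11 were not called, with a median log2 fold change of 0.18, where 20.0% of all genes rose and 17.2% fell. Under upper-quartile scaling the split was 7 and 3, where 2310 of all 14287 tested genes rose and 3472 fell. ZC3H12A, the endonuclease Regnase-1, rose most. Its levels were 8.09, 7.88 and 7.91 CPM in Ctrl and 65.6, 57.6 and 61.8 CPM under DdBIC. They were 9.19, 9.42 and 9.57 CPM under Hemin and 13.9, 12.5 and 11.95 CPM under DdBIC+Hemin. The DdBIC libraries did not overlap with any other group, and the log2 fold change was 2.95 against Ctrl (SE 0.0688, adjusted p = 2.02e-10) and −2.27 for added hemin (SE 0.0665, adjusted p = 2.60e-09).

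ZC3H12C, a relative of ZC3H12A, and RC3H1, the stem-loop binding protein Roquin-1, rose from 15.8 to 27.3 CPM and from 27.9 to 42.4 CPM. ARID5A, which protects inflammatory mRNAs from Regnase-1, rose from 6.54 to 12.4 CPM. HNRNPD, the AU-rich element binding protein AUF1, fell by 0.12 (SE 0.0362, adjusted p = 0.0193), a call lost without Ctrl 3 and without DdBIC 3. ELAVL1, the stabilising protein HuR, ranged from 159.5 to 193 CPM over the 12 libraries and was not called in any comparison.

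With hemin added, 9 of the 20 genes fell and 2 rose, beside 18.4% and 13.5% of all genes, and under upper-quartile scaling 6 fell and 4 rose. ZC3H12C fell by 0.75 (SE 0.0927), ARID5A fell by 0.65 (SE 0.108) and RC3H1 fell by 0.52 (SE 0.0611). HNRNPD rose by 0.14 (SE 0.0362), and the decay factor KHSRP was at 0.12 (SE 0.0406, adjusted p = 0.0422), a call lost under 10 of 19 alternatives. Hemin alone changed 0 of the 20 by edgeR and 0 by DESeq2, with 4 at an unadjusted p under 0.05, in a comparison where 4.06% of all genes were called.

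The kinases, phosphatase subunits and 14-3-3 proteins that act on tristetraprolin form a list of 26 genes. With DdBIC 4 rose and 7 fell, beside 20.0% and 17.2% of all genes, with a median log2 fold change of −0.07. Under upper-quartile scaling the split was 3 and 12, where 2310 of all 14287 tested genes rose and 3472 fell. MAP2K3, which activates p38, rose from 88.1 to 181 CPM (log2 fold change 1.04, SE 0.0679, adjusted p = 6.02e-07), while its partner MAP2K6 fell by 0.41 (SE 0.0840) at a level of 5.59 CPM in Ctrl. RPS6KA3, a kinase downstream of ERK, rose by 0.56 (SE 0.0234), and MAPKAPK2, the kinase that phosphorylates tristetraprolin, rose by 0.27 (SE 0.0367). MAPK3, AKT1 and the 14-3-3 gene YWHAQ fell by 0.33 (SE 0.0587), 0.24 (SE 0.0421) and 0.24 (SE 0.0220). The 14-3-3 gene YWHAH was at 0.08 (SE 0.0268), a call lost under 9 of 19 alternatives.

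With hemin added, 8 of the 26 rose and 3 fell, beside 13.5% and 18.4% of all genes, and under upper-quartile scaling 11 rose and 3 fell. MAP2K3 fell by 0.68 (SE 0.0674) to 113 CPM, RPS6KA3 fell by 0.33 (SE 0.0233) and MAPKAPK2 fell by 0.26 (SE 0.0367). MAPKAPK2 was also lower with Hemin alone, at −0.18 (SE 0.0367, adjusted p = 0.0199), a call lost with only the groups compared and without Ctrl 1, Ctrl 3, Hemin 2 or Hemin 3, and was not called in the interaction, at −0.08. YWHAQ rose by 0.28 (SE 0.0220), MAPK3 rose by 0.24 (SE 0.0587) and PPP2R1A, a scaffold of the phosphatase PP2A, rose by 0.21 (SE 0.0280). SFN was at 0.44 (SE 0.142) with 8 of 19 alternatives losing the call.

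The mRNAs with AU-rich elements formed the list with the largest differences. Of 33 genes 32 were tested, and IL3 had 0 counts in every library. With DdBIC 27 rose, 1 fell and 4 were not called, with a median log2 fold change of 1.81, where 20.0% of all genes rose and 17.2% fell. With hemin added 23 fell and 2 rose, with a median of −1.22, beside 18.4% and 13.5% of all genes. Under the alternatives other than leaving out a library, 24 to 27 of the list were called with DdBIC in place of 28. With added hemin 21 to 25 were called in place of 25. Some of these alternatives did not test genes with low counts. With Hemin alone 3 rose and 1 fell, with a median of 0.00, beside 1.47% and 2.59%. This count of 4 went to 2 without Hemin 1 or without Hemin 3 and to 9 with DESeq2, and that of all genes, 580, went to between 272 and 373 without any one Ctrl or Hemin library and to 863 with DESeq2. In the interaction 21 were lower and 1 was higher, beside 10.2% and 6.40%. Several of these mRNAs were known to differ in these libraries when the list was made, so the counts are not independent evidence of a direction.

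AU-rich stretches of 4 of these mRNAs and of BTG2, the deadenylation cofactor named above, are shown for comparison with those of the family. TNF and CXCL2 hold overlapping heptamers in an uninterrupted run, whereas FOS, like the family, holds only separate ones. TNF, CXCL2 and CXCL8 also hold separate single heptamers elsewhere in the region, which are not shown. The stretches are from the same transcripts and marked in the same way.
TNF, chr6:31578001-31578029, plus strand: TATTTATTATTTATTTATTATTTATTTAT
CXCL2, chr4:74097586-74097614, minus strand: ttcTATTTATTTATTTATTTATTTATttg
CXCL8, chr4:73743109-73743138, plus strand: aaccTATTTATTATTTATgTATTTATttaa
FOS, chr14:75282066-75282082, plus strand: taattTATTTATtaaga
FOS, chr14:75282090-75282106, plus strand: tcagaTATTTATatttt
BTG2, chr1:203307534-203307550, plus strand: agagcTATTTATatata

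TNF, an inflammatory cytokine and the classical target of tristetraprolin, had 2, 0 and 2 counts in Ctrl, 303, 260 and 301 with DdBIC, 0 in each Hemin library, and 2, 0 and 4 with DdBIC+Hemin. The counts outside the DdBIC group were at or near the limit that a count of 0 allows, so no fold is given. CXCL8, the neutrophil chemokine interleukin-8, was at 9.03, 8.67 and 9.75 CPM in Ctrl and at 712.5, 598.5 and 703 CPM with DdBIC (log2 fold change 6.20, SE 0.221, adjusted p = 4.46e-08). With DdBIC+Hemin it was at 35.7, 20.3 and 24.7 CPM, below DdBIC but above every Ctrl library.

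CXCL2 and CXCL3, chemokines of the same cluster, rose from 0.511 to 85.1 CPM and from 0.454 to 21.97 CPM. FOS, a subunit of AP-1, was at 4.09, 2.29 and 5.12 CPM in Ctrl, 214, 123 and 193 CPM with DdBIC, and 6.87, 9.89 and 10.2 CPM with DdBIC+Hemin. Over the 27 AU-rich mRNAs that rose, the highest library was DdBIC 1 for 17, DdBIC 2 for 5 and DdBIC 3 for 5, beside 185, 21 and 61 of the 267 genes counted above. Unlike the 267, the 27 were not limited to a mean of at least 5 CPM with DdBIC.

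NOTCH1, a receptor of cell fate signalling, was the 1 member of the list that fell with DdBIC, from 391 to 299 CPM (log2 fold change −0.39, SE 0.0348, adjusted p = 7.47e-06), and it rose by 0.26 (SE 0.0348) with added hemin. CCND1, the cyclin D1 gene, had a level of 809 CPM in Ctrl and 820 CPM with DdBIC and was not called there. With added hemin it was at 0.12 (SE 0.0354, adjusted p = 0.0196), a call lost without DdBIC 1, without DdBIC 2 and with only the groups compared. With Hemin alone it rose by 0.26 (SE 0.0355, adjusted p = 0.00217).

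The letters themselves were then counted in all tested genes, a step chosen after the counts were seen. A 3′ untranslated region was found for 13994 of the tested genes, of which 33.9% held a heptamer and 8.98% a nonamer. With DdBIC 19.2% of the 12737 genes without a nonamer rose, against 29.3% of 961 genes with 1, 30.8% of 195 genes with 2 and 33.7% of 101 genes with 3 or more. The share at a log2 fold change of at least 1 went from 3.51% to 5.10%, 7.18% and 15.8%. Without the family and the AU-rich list this share was 3.47%, 4.32%, 5.29% and 11.6%. The median log2 fold change went from −0.02 to 0.07, 0.10 and 0.14, which is small beside the value of any family member. Leaving out the family and the AU-rich list, these medians were −0.02, 0.07, 0.09 and 0.09, and with all genes and upper-quartile scaling they were −0.08, 0.01, 0.04 and 0.08.

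With hemin added to DdBIC, 17.6% of the genes without a nonamer fell, against 26.3%, 32.3% and 29.7% of those with 1, 2 and 3 or more. Without the family and the AU-rich list these shares were 17.6%, 25.6%, 31.2% and 25.3%. The bins also differed in length, with a median region of 1076 bases without a nonamer and 4342 bases with 3 or more, and in median AT content, with 56.6%, 62.1%, 61.6% and 59% for 0, 1, 2 and 3 or more. Among genes with a region of 500 to 1500 bases, 19.2% of those without a nonamer rose with DdBIC, 28.6% of those with 1 and 36.4% of those with 2 or more. The 55 genes with 2 or more include TNF, CXCL2 and other members of the AU-rich list that rose. Shares within this length were not computed without the list, so they do not separate length from the choice of the list. Over regions of all lengths, leaving out the family and the AU-rich list, the shares that rose were 19.1, 28.6, 28.6 and 29.5% for 0, 1, 2 and 3 or more nonamers. With all genes in the bins and upper-quartile scaling they were 15.3, 24.8, 27.7 and 28.7%. The part of AT content in these shares was not tested, and no test was made of the difference between the bins.

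Genes with a pattern like that of each member were ranked by Pearson's correlation of log2 CPM over the 12 libraries, over the 10678 genes whose mean reached 5 CPM. The libraries fall into 4 treatment groups, so these values mostly reflect differences between groups and are a description. For ZFP36 the highest were NFXL1 (0.988), TET3 (0.987), PRKRIP1 (0.987), GGNBP2 (0.986) and FNBP4 (0.983). They shared the shape but not the size of the difference, since NFXL1 went from 33.9 CPM in Ctrl to 55.8 with DdBIC and 31.9 with DdBIC+Hemin.

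For ZFP36L1 they were CDK11B (0.991), SERTAD2 (0.988), BRSK1 (0.987), TRIB1 (0.986) and TNFAIP3 (0.984). TNFAIP3, the NF-kB inhibitor A20, went from 3.91 CPM in Ctrl to 204.5 with DdBIC and 9.19 with DdBIC+Hemin. For ZFP36L2 they were GFPT2 (0.996), IRF2BPL (0.992), STX1A (0.991), GRAMD1B (0.990) and ZSWIM6 (0.989). GFPT2, an enzyme of hexosamine synthesis, went from 56.8 CPM to 100.3 and 65.4. Within the family the correlation was 0.921 for ZFP36 with ZFP36L1, 0.920 for ZFP36L1 with ZFP36L2 and 0.855 for ZFP36 with ZFP36L2.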

How the data were processed

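The deposited table holds, for each of the 12 libraries, raw read counts per gene as deposited by the authors, together with deposited TPM (length and depth scaled to one sum per library) and deposited FPKM (length and depth scaled, with no fixed sum). The submitters' processing notes name Trim Galore, featureCounts of Subread and hg38. The aligner, the versions, the annotation and the use of strand are not given in the sources used here. Groups were taken from the treatment labels. The family, the gene lists and the tests were chosen with earlier results of these data known.

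Counts were fitted with edgeR 4.0.16 in R 4.3.3 over all 12 libraries, with 1 mean per group, genes kept by filterByExpr, TMM factors (0.989 to 1.01), a robust quasi-likelihood fit with 8 residual degrees of freedom and Benjamini-Hochberg adjustment over 14287 genes. Genes were called at an adjusted p under 0.05. Each standard error was obtained by dividing the size of the log2 fold change by the square root of its F statistic. CPM were computed from counts and TMM-scaled library sizes. The script was tested on simulated data. TPM served for levels between genes and FPKM only for the implied length. The text names the 3 genes, of each list the up to 4 largest rises and falls among called genes for DdBIC against Ctrl and for added hemin, the 5 genes most alike each member, and HMOX1. CNOT1 and ELAVL1 were named outside this rule, after their values were seen. Also outside it were the neighbouring genes, the cell type markers, IL3 for its 0 counts, and CCL2, MYC and CDKN1A for lacking the heptamer. Python 3.11.15 with pandas 2.3.3 was used to count motifs in the 3′ untranslated regions of GENCODE 29 transcripts and in RefSeq promoters. ZFP36L2 was not among the promoters used here. Alternatives were DESeq2 1.42.0, other scalings and filters, fits of only the groups compared, a replicate block, and leaving out each library. Same-numbered samples of different groups had correlations of their deviations from the group means of −0.046 to 0.081 over 18 pairs, so the numbers were not taken to pair samples.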

Additional observations from a re-analysis of the deposited data

Results flagged for a closer look

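Hemin altered the DdBIC effect in 16 of the 35 genes named from the lists, by the interaction term of the edgeR fit with adjustment over all tested genes, where 16.6% of all tested genes were called in either direction. These genes were named for their size in comparisons that share the DdBIC libraries with the interaction, so the count is not independent of that choice and is not to be read against the share of all genes. The values below are log2 differences, DdBIC+Hemin against Hemin less DdBIC against Ctrl.

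Of the 16, 12 were lower with hemin. The AU-rich mRNAs among them were CXCL2 at −5.77, CXCL3 at −4.54, FOS at −4.15 and CXCL8 at −4.09. Among the other decay factors they were ZC3H12A at −2.51, ZC3H12C at −0.68 and RC3H1 at −0.55. Among the deadenylation genes they were BTG2 at −0.90, BTG1 at −0.77 and TOB2 at −0.52, and among the kinases MAP2K3 at −0.72 and RPS6KA3 at −0.32. The other 4 were higher with hemin, NOTCH1 at 0.32, AKT1 at 0.25, YWHAQ at 0.25 and PPP2R1A at 0.19. No cause was tested for these differences.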

How the results depend on the processing

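Of 53 calls of genes named from the lists, 44 held under each alternative in which the gene was tested, which was 18 for TNF and 19 for the others. In the 4 comparisons for which alternatives were run, no family value and no named call changed sign. DdBIC+Hemin against Hemin and against Ctrl had no alternatives. Under upper-quartile scaling the log2 fold change of DdBIC against Ctrl was 1.11 for ZFP36L1 and 0.45 for ZFP36L2, that for added hemin was −0.30 for ZFP36L2, and its interaction was −0.12. With library size alone, ZFP36L2 was at 0.49 against Ctrl. Upper-quartile scaling also turned the split of all genes called with DdBIC from 2859 higher and 2451 lower to 2310 and 3472, and with added hemin from 1933 and 2626 to 2948 and 2032. With only the groups compared, 7 of the other decay factors were called for added hemin in place of 11, and 0 kinases for Hemin in place of 1. DESeq2 called 9 AU-rich mRNAs for Hemin in place of 4, and 863 genes in all in place of 580. The cause of these differences was not tested.

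Leaving out one library at a time, the log2 value of ZFP36 ranged from 3.77 to 4.51 for DdBIC against Ctrl, from −4.88 to −4.15 for added hemin and from −4.64 to −3.90 for the interaction, in each case nearest to 0 without DdBIC replicate 2. The genes called for Hemin against Ctrl ranged from 272 to 623, with 364, 341 and 292 without Ctrl 1, 2 and 3 and 373, 272 and 338 without Hemin 1, 2 and 3. The counts for Hemin ranged from 2 to 4 for the decay machinery (2 without Ctrl 3 or Hemin 2), 0 to 1 for the kinases (0 without Ctrl 1, Ctrl 3, Hemin 2 or Hemin 3) and 2 to 6 for the AU-rich mRNAs (2 without Hemin 1 or Hemin 3), and those of the other decay factors ranged from 7 (without DdBIC+Hemin 2) to 11 for added hemin and from 6 to 10 for DdBIC. With the replicate block ZFP36 was at 4.21 and −4.60, and 5084 genes were called with DdBIC and 408 with Hemin. The block moved no list count or family value past the limits used, apart from ending the calls of DCP2, DCP1B, KHSRP and SFN for added hemin. The depth limits statements on TNF and IL3, whose counts outside the DdBIC group were at most 4 per library.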
